A study of Oryza sativa with 32 samples.

Results

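Roots and shoots of wild type rice (Oryza sativa cv. Nipponbare) were compared on 8 of the 32 Affymetrix rice arrays of this study, 4 of root RNA and 4 of shoot RNA. The 8 arrays were taken because their labels give wild type root and wild type shoot, and no measured value entered that choice. The plants grew in hydroponics with 5 mM ammonium as nitrogen source, kept at 28 °C and 70% humidity under 750 µE of light for 14 h, with 10 h of darkness. Tissue was collected at mid-day when tillering was at its maximum. The other 24 arrays came from AGR1/7, AGR1/8 and AGR3/8, lines in which the root-specific promoter of rice OsANT1 drives a barley alanine aminotransferase (HvAlaAT), with 4 root and 4 shoot arrays each and the same culture. Wild type carried no transgene. The labels call the 4 arrays of a group biological replicates and do not say how many plants each holds, so the p-values measure the spread between these samples.

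In a grass, the root takes up water and mineral ions, moves them past the barrier of the Casparian strip into the xylem, and lives on sucrose sent down from the leaves. The shoot fixes carbon, reduces nitrite and re-assimilates the ammonium that photorespiration releases, all in or beside the chloroplast. Ammonium taken up by rice roots is joined to glutamate by cytosolic glutamine synthetase before it is moved to the shoot. Many of the families that do this work hold members for the root and members for the leaf.

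An array gives 1 intensity per probe set, in the unit the authors deposited, so a level can be set against the same probe set on another array but not against another probe set. Differences below are root minus shoot on log2(intensity + 16), where the added 16 understates the difference of dim genes. Of 57381 probe sets, 187 controls and the dimmest 33.3% were left out, which left 38129 to be tested with limma and Benjamini-Hochberg adjustment. At an adjusted p under 0.05, 11268 probe sets (29.6% of those tested) were higher in root and 9716 (25.5%) were higher in shoot, 55.0% together. A probe set is called higher below when it also differed by at least 1 log2, which held for 6150 in root (16.1%) and 4810 in shoot (12.6%), or 28.7% together. At 2 log2 or more the counts were 2275 (5.97%) and 2326 (6.10%). In whole tissues, fewer cells of a type and less RNA per cell cannot be told apart.

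The markers of each tissue were where the labels put them. Over 20 probe sets for 11 green tissue genes (rubisco, its activase, light harvesting and photosystem genes among them), the summed intensity was 1032 to 1450 on the root arrays and 84081 to 99998 on the shoot arrays. Over 14 probe sets for 9 root genes, it was 11083 to 16252 in root and 430 to 537 in shoot. Most of that root sum came from the silicon transporters Lsi1 and Lsi2. Of the probe sets, 1 of the 20 and 12 of the 14 were higher in root. Root replicate 1 stood apart from the other root arrays: its mean correlation with them was 0.954, against 0.971 to 0.976 for the others and 0.977 to 0.983 among the shoot arrays. The ratio of the 3′ to the 5′ actin control, a sign of RNA quality, was 2.3 to 4.04 in root and 2.92 to 4.67 in shoot. For the GAPDH control it was 2.25 to 3.29 in root and 2.51 to 2.73 in shoot. Root replicate 1 had the lowest actin ratio, 2.3, and the highest GAPDH ratio, 3.29. The part of RNA quality in the results was not tested. All 24 spike-in probe sets, the BioB, BioC, BioD and Cre hybridisation controls, had a lower mean on the root arrays, by 0.30 log2 on average. Scaled to them, the median difference of all tested probe sets went from 0.02 to 0.22 log2 and the probe sets called higher became 7786 in root and 3963 in shoot. Small differences therefore depend on the scaling, and those named below are given as deposited.

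The 29 gene lists described here hold 682 probe sets on the array, of which 614 for 494 genes were bright enough to be tested. Of these, 216 were called higher in root and 120 in shoot, where 16.1% and 12.6% of all tested probe sets were. For 28 of the 29 lists the counts were the same when no probe set was left out for low values, with 10.7% and 8.39% of all probe sets called. In the cytokinin list the shoot count went from 8 to 7. Lists for photosynthesis lay far on the shoot side and lists for wall building on the root side. Most transport lists held called members on both sides. With 16.1% and 12.6% of all tested probe sets called, most lists of some size would hold both. Members on both sides are therefore no trait of transport genes by themselves. Whether transport lists differ in this from other sets of probe sets was not tested.

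**Figure D1:**
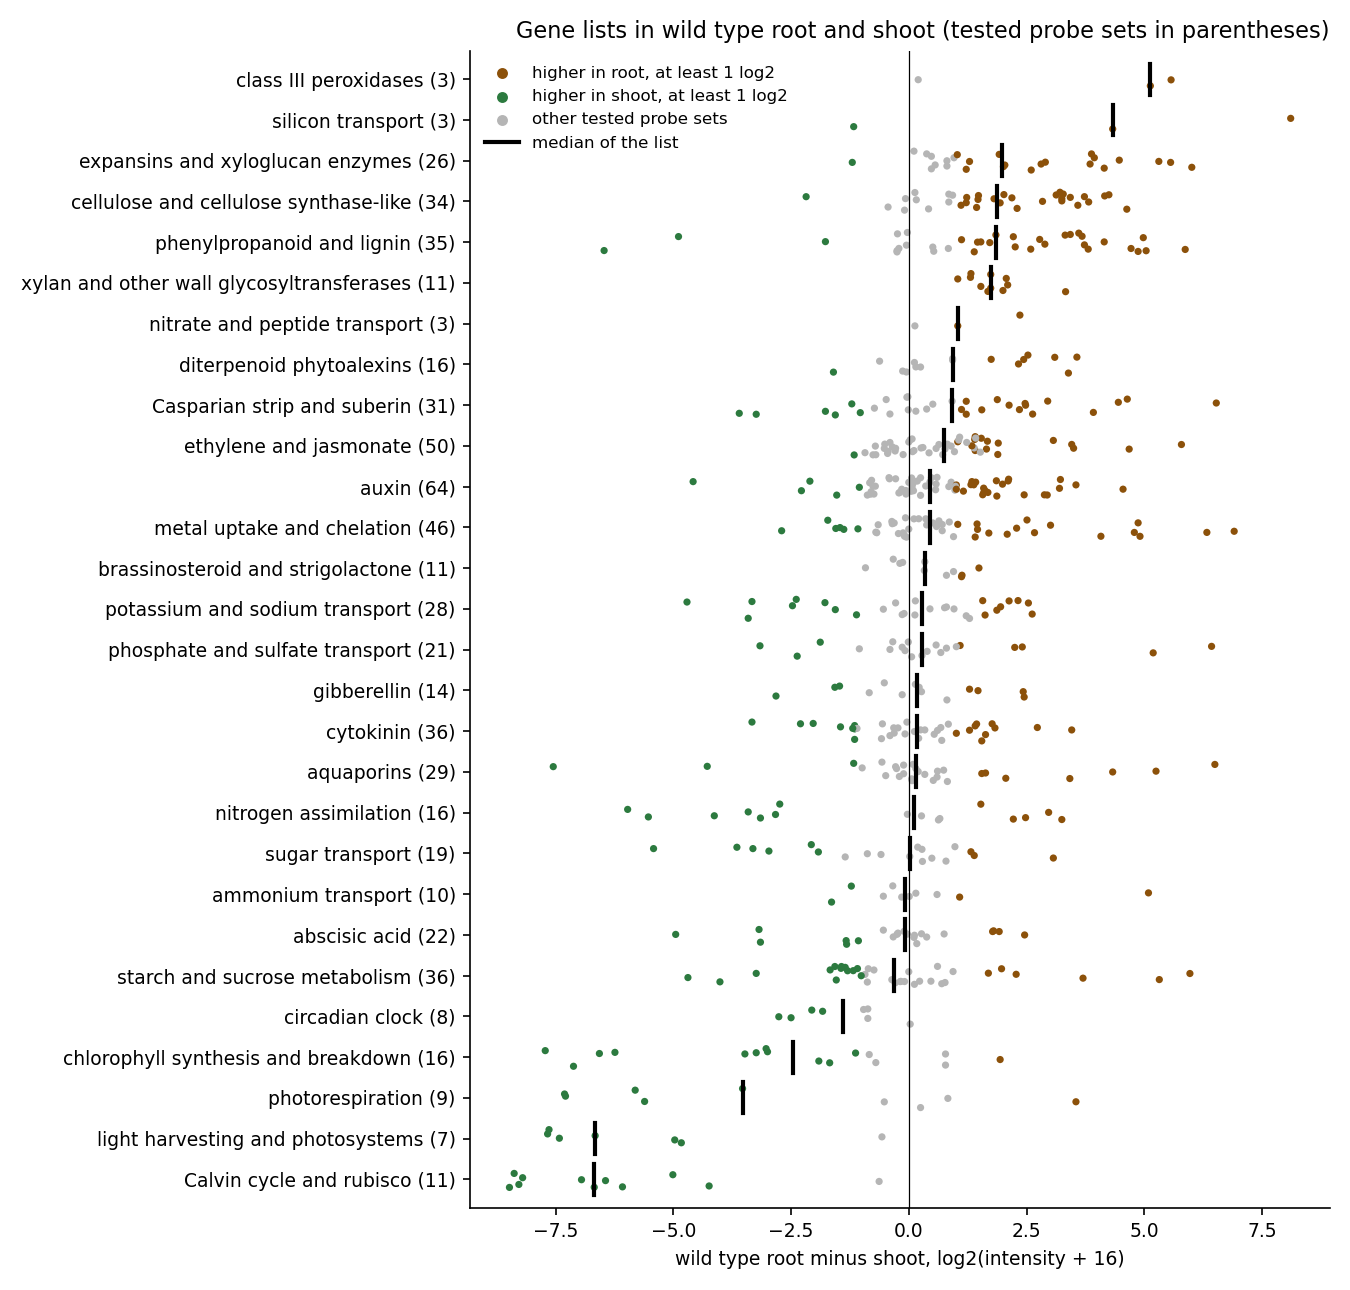
Root minus shoot difference of every tested probe set in 28 of the lists, on log2(intensity + 16), with lists ordered by their median (black bar). Brown points were called higher in root and green points higher in shoot by at least 1 log2; medians run from -6.68 log2 for the Calvin cycle and rubisco to 5.13 log2 for class III peroxidases, which has 3 probe sets.

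Ammonium transporters of the AMT family carry ammonium across the plasma membrane. All 10 probe sets for 8 AMT genes were tested. Of these, 2 were called higher in root and 2 in shoot, and their median was -0.07 log2 against 0.02 for all tested probe sets. AMT1-2 (LOC4330008), which rice expresses in the root and which ammonium is known to induce, had the largest difference of the list. Over replicates 1 to 4, the order used throughout, its intensity was 379.5, 2912.5, 1230.4 and 2422.9 in root and 16.4, 28.8, 31.9 and 21.9 in shoot. Root replicate 1 was well below the other root arrays, yet no root array came near a shoot array. The difference was 5.09 log2 (SE 0.52, adjusted p = 1.46e-05), and 5.68 log2 without root replicate 1.

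AMT1-1 (LOC4336365), the constitutive member of the family, had intensities of 693.5, 1179.6, 923.9 and 1195.4 in root and 1005.8, 1014.9, 967.3 and 892.0 in shoot. The tissues overlapped and the difference was 0.01 log2 (SE 0.16, adjusted p = 0.966). A second and much dimmer probe set of the gene read 0.8, 1.3, 1.5 and 9.2 on the root arrays and 15.3, 30.8, 35.5 and 33.5 on the shoot arrays, a difference of -1.22 log2 (SE 0.20, adjusted p = 0.000461), so the probe sets of this gene disagree. AMT3-3 was higher in shoot, with 15.4, 21, 28.5 and 33.4 in root and 117.1, 96, 120.6 and 101.1 in shoot, a difference of -1.64 log2 (SE 0.17, adjusted p = 1.25e-05) with no overlap. AMT2-3 was higher in root by 1.08 log2 (SE 0.17, adjusted p = 0.000307) at low intensities of 34.0 to 51.9 in root and 6.1 to 17.9 in shoot. AMT2-1 and AMT2-2 passed the test with smaller differences, -0.54 log2 (SE 0.15, adjusted p = 0.0126) and 0.6 log2 (SE 0.15, adjusted p = 0.00731). With spike-in scaling AMT2-1 no longer passed. AMT3-1 and AMT3-2 did not pass, with differences between -0.34 and 0.15 log2. AMT3-2 passed when replicate number was blocked (adjusted p = 0.041), with array weights (adjusted p = 0.0168) and without root replicate 1 (-0.42 log2, adjusted p = 0.0174). The AMT3-1 probe set at 0.15 log2 passed with spike-in scaling, at 0.36 log2.

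Nitrate transporters were measured by 3 probe sets. NRT2.3, a high-affinity nitrate transporter of the root stele, read 45.9, 167.7, 82.6 and 126.1 in root and 12.4, 0.8, 9.9 and 2.5 in shoot. Its difference was 2.36 log2 (SE 0.32, adjusted p = 0.000114), without overlap. NRT2.2 was also higher in root, by 1.04 log2 (SE 0.16, adjusted p = 0.000234). NAR2.2, a partner protein that NRT2 transporters need, was dim in both tissues and differed by 0.13 log2 (SE 0.38, adjusted p = 0.799).

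Nitrogen assimilation held genes on both sides. Of 16 tested probe sets for 10 genes, 5 (31.2%) for 3 genes were called higher in root and 7 (43.8%) for 4 genes higher in shoot. The shares of all tested probe sets were 16.1% and 12.6%. The median of the list was 0.12 log2. GLN2, the chloroplast glutamine synthetase that takes up photorespiratory ammonium, read 114.7, 83.5, 55.9 and 74.7 in root and 4083.5, 4605.9, 4749.3 and 4293.0 in shoot. Every shoot array was far above every root array, with a difference of -5.53 log2 (SE 0.16, adjusted p = 9.19e-10), and a second probe set differed by -4.13 log2 (SE 0.21, adjusted p = 4.77e-08). Fd-GOGAT, the ferredoxin-dependent glutamate synthase, had 329.7, 412.0, 318.6 and 462.9 in root and 4031.4, 4159.8, 4264.7 and 4139.9 in shoot. Its 3 probe sets differed by -3.41, -3.15 and -2.74 log2, with adjusted p-values from 2.98e-09 to 1e-08. GLT2, an NADH-dependent glutamate synthase of rice, was also higher in shoot, with -2.83 log2 (SE 0.34, adjusted p = 4.37e-05), with intensities of 8.9 to 77.7 in root and 292.4 to 385.5 in shoot.

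NIA1 (LOC4345795), which encodes nitrate reductase, showed the widest difference among the nitrogen genes. It read 11.1, 10.2, 11.6 and 16.8 in root and 1446.9, 1800.1, 2187.6 and 1662.3 in shoot. Root arrays were near background and the difference was -5.97 log2 (SE 0.14, adjusted p = 2.25e-10). A second, dim probe set of this gene gave 0.27 log2 (SE 0.19, adjusted p = 0.252), and passed without shoot replicate 3, at 0.44 log2.

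On the root side stood cytosolic glutamine synthetase and glutamate dehydrogenase. GLN1-2, the cytosolic glutamine synthetase known from rice roots, had 4220.2, 5247.8, 3862.6 and 5132.0 in root and 926.7, 1022.3, 918.5 and 1015.0 in shoot. Every root array was above every shoot array, and the difference was 2.22 log2 (SE 0.11, adjusted p = 5.79e-08). GLN1-1, the cytosolic form known from the rice leaf blade, was added after its values were seen because it lies outside the rule for named genes. It was bright in both tissues at 2474.9, 1689.9, 2125.4 and 1910.5 in root and 1360.6, 1263.0, 1332.5 and 1283.4 in shoot, and root exceeded shoot by 0.63 log2 (SE 0.12, adjusted p = 0.000988). GLN1-3 was dim, at 1.7 to 61.8 over both tissues, and differed by 0.66 log2 (SE 0.30, adjusted p = 0.0847). It passed when replicate number was blocked (adjusted p = 0.0323) and in the fit of all 32 arrays (adjusted p = 0.0199). GDH1, a glutamate dehydrogenase that can release or fix ammonium in mitochondria, read 1591.5, 774.8, 838.2 and 824.3 in root and 96.9, 65.8, 116.0 and 76.1 in shoot and differed by 3.25 log2 (SE 0.24, adjusted p = 1.02e-06). The brightest probe set of GDH2 read 1794.2, 609.9, 955.0 and 597.6 in root and 115.5, 86.6, 98.3 and 101.2 in shoot and differed by 2.97 log2 (SE 0.30, adjusted p = 1.33e-05). Root replicate 1 was the highest root array for both genes. A dimmer GDH2 probe set fell from 1.53 to 0.96 log2 without that array. GDH3, added outside the rule like GLN1-3, was near background with a difference of -0.03 log2 (SE 0.26, adjusted p = 0.927).

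**Figure D2:**
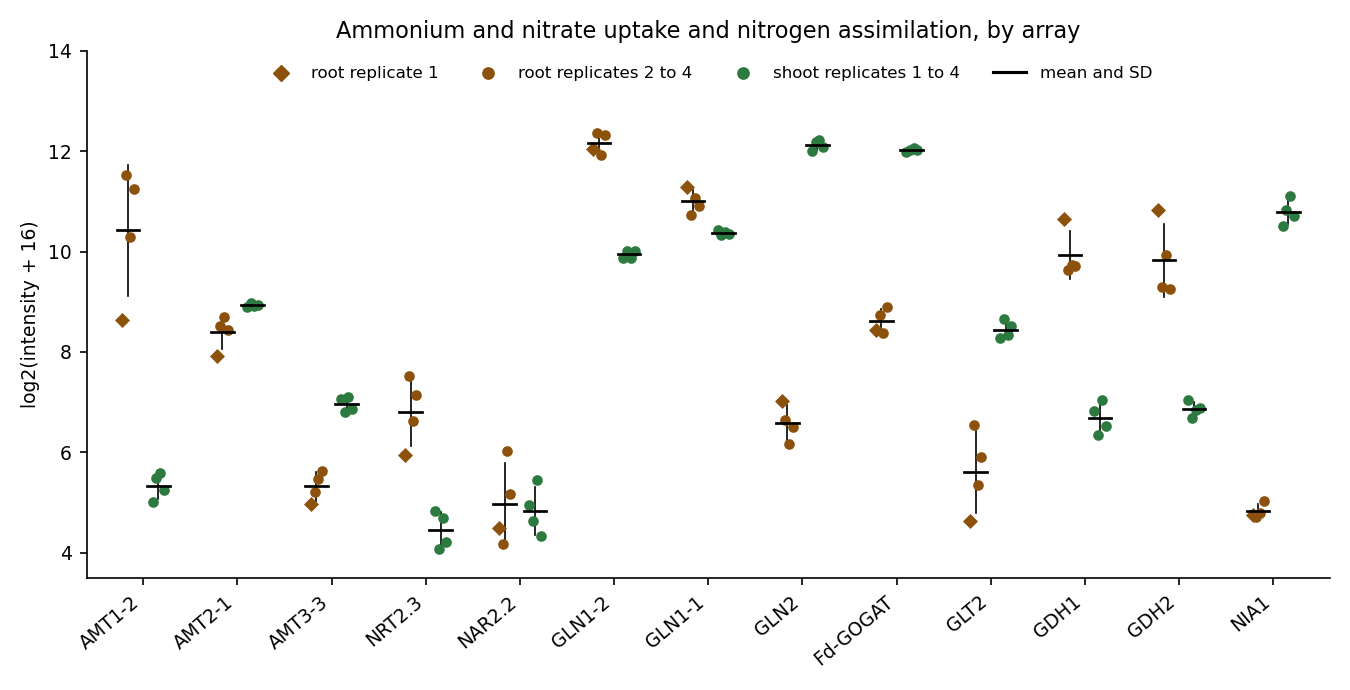
Level of 13 nitrogen genes on each wild type array, on log2(intensity + 16), with the probe set of largest difference for each gene; brown marks are root arrays (diamond, replicate 1), green circles shoot arrays, black bars the mean and SD of 4. GLN1-2, GDH1 and GDH2 sit higher in root and GLN2, Fd-GOGAT, GLT2 and NIA1 higher in shoot without overlap, while NAR2.2 overlaps.

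The list for phosphate and sulfate transport had 21 tested probe sets of 29 on the array. The tested ones were for phosphate transporters (PT, Pht1, PHO1) or for SPX genes, which are not transporters. None was for a sulfate transporter. Of the 21, 5 (23.8%) were called higher in root and 3 (14.3%) in shoot, the latter near the 12.6% of all tested probe sets. The median was 0.28 log2. That median was 0.08 log2 without root replicate 1, 0.44 without root replicate 2, 0.50 without shoot replicate 1 and 0.14 without shoot replicate 2. PT2, a phosphate transporter of the rice root that moves phosphate toward the stele, read 2280.2, 2199.0, 1554.4 and 2796.2 in root and 5.5, 3.9, 21.3 and 9.7 in shoot. The shoot arrays were at background and the difference was 6.43 log2 (SE 0.23, adjusted p = 3.3e-09). PHO1-2, which loads phosphate into the xylem, read 1602.2, 2593.5, 2171.1 and 2304.7 in root and 30.6, 43.3, 58.6 and 41.9 in shoot, a difference of 5.19 log2 (SE 0.18, adjusted p = 2.8e-09). Its relative PHO1-3 ran the other way at 17.4, 38.4, 54.1 and 35.6 in root and 273.4, 479.9, 547.2 and 501.9 in shoot, a difference of -3.16 log2 (SE 0.26, adjusted p = 2.55e-06). The other probe sets of PHO1-2 differed by 0.68 and -0.4 log2 at much lower signal. PT6, which takes part in uptake and transfer of phosphate, was higher in root by 2.41 log2 (SE 0.26, adjusted p = 2.33e-05). The probe sets of PT1 contradicted each other: one was higher in shoot, with a difference of -2.37 log2 (SE 0.24, adjusted p = 1.31e-05), and one higher in root, with 2.25 log2 (SE 0.22, adjusted p = 1.02e-05), so no direction is given for this gene.

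Potassium and sodium transport had 28 tested probe sets, with a median of 0.29 log2. Of these, 8 (28.6%) for 6 genes were called higher in root and 8 (28.6%) for 6 genes higher in shoot. The shares of all tested probe sets were 16.1% and 12.6%. The root side had the inward channel AKT1, which takes up potassium at the root surface. It read 477.4, 872.2, 506.8 and 704.4 in root and 173.5, 134.8, 132.1 and 157.8 in shoot and differed by 1.95 log2 (SE 0.19, adjusted p = 8.99e-06). HAK1, a high-affinity potassium uptake transporter, was higher in root by 1.87 log2 (SE 0.27, adjusted p = 0.000193), and HAK10 by 2.32 log2 (SE 0.29, adjusted p = 7.05e-05). HKT1;5, which withdraws sodium from the xylem and so protects rice leaves from salt, read 60.7, 380.5, 156.3 and 210.5 in root and 18.9, 14.2, 12.3 and 19.2 in shoot. The root arrays ranged widely, root replicate 1 lowest, but none overlapped the shoot, and the difference was 2.54 log2 (SE 0.40, adjusted p = 0.000342).

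The shoot side of the same family was led by HAK27, with 0.8, 4.7, 1.2 and 9.1 in root and 529.7, 491.6, 522.9 and 454.0 in shoot, a difference of -4.71 log2 (SE 0.15, adjusted p = 1.77e-09). HAK17 followed with -3.41 log2 (SE 0.32, adjusted p = 6.81e-06) and HAK22 with -3.33 log2 (SE 0.18, adjusted p = 9.12e-08), and second probe sets of both were called in the same direction. HAK5 was called higher in shoot by 1 probe set, with -2.39 log2 (SE 0.18, adjusted p = 1.44e-06) at 5.9 to 19.8 in root and 112.4 to 169.6 in shoot, while its bright probe set, at 2972.9 to 4796.8 over both tissues, differed by 0.14 log2 (SE 0.14, adjusted p = 0.432). The bright probe set passed toward root with quantile normalization, at 0.61 log2 (adjusted p = 0.00603), and without shoot replicate 1, at 0.28 log2 (adjusted p = 0.0212).

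Silicon is taken up by rice roots by the paired action of the channel Lsi1 at the outer face and the efflux transporter Lsi2 at the inner face of the endodermis and exodermis, and Lsi6 unloads it in the shoot. Lsi2 (LOC4331328) had the largest difference toward root of all the list members. It read 3617.1, 5615.2, 4355.2 and 5450.2 in root and 0.5, 0.8, 1.6 and 1 in shoot. The shoot arrays were at the foot of the scale and the difference was 8.11 log2 (SE 0.15, adjusted p = 3.86e-11). Lsi1 read 5240.1, 6654.9, 6207.4 and 6517.3 in root and 282.6, 344.4, 243.2 and 292.2 in shoot, which is well above background in shoot too, and differed by 4.33 log2 (SE 0.12, adjusted p = 6.04e-10). Lsi6 read 764.3, 223.2, 150.2 and 207.1 in root and 539.8, 663.2, 617.5 and 727.1 in shoot. Root replicate 1 lay among the shoot arrays, so the groups overlapped, and the difference toward shoot was -1.17 log2 (SE 0.40, adjusted p = 0.0287). Without root replicate 1 it was -1.65 log2, and the call was lost with spike-in scaling and when any of 6 other arrays was left out.

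Metal uptake and chelation had 46 tested probe sets. Of these, 16 (34.8%) were called higher in root and 6 (13.0%) in shoot, and the median was 0.44 log2. The shoot share was near the 12.6% of all tested probe sets. NRAMP5, the manganese and cadmium uptake transporter of the rice root, read 1951.7, 4639.8, 3368.1 and 3718.9 in root and 13.8, 10.3, 13.5 and 8 in shoot and differed by 6.91 log2 (SE 0.23, adjusted p = 2.23e-09). The zinc transporters ZIP1 and ZIP5 were higher in root by 6.33 log2 (SE 0.21, adjusted p = 2.18e-09) and 4.91 log2 (SE 0.19, adjusted p = 8.21e-09). HMA5, a copper-transporting ATPase that loads the xylem, differed by 4.08 log2 (SE 0.23, adjusted p = 1.4e-07). Nrat1, which takes up trivalent aluminium and is related to the NRAMP transporters, differed by 6.21 log2 (SE 0.16, adjusted p = 3.31e-10) and is among the 15 largest root differences with a descriptive name.

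NAS1 and NAS2, which make nicotianamine, the metal chelator from which grasses build their iron-binding phytosiderophores, were high in root but uneven. NAS1 read 701.3, 1778.9, 145.3 and 378.1 in root and 1.9, 2.8, 2 and 2.4 in shoot. Root replicate 2 was highest and root replicate 3 lowest, with the shoot arrays far below both, and the difference was 4.87 log2 (SE 0.58, adjusted p = 4.12e-05). It was 4.29 log2 without root replicate 2 and 5.45 log2 without root replicate 3. NAS2 showed the same order over the root arrays, 871.0, 2251.6, 283.6 and 678.9, and differed by 4.79 log2 (SE 0.51, adjusted p = 1.9e-05). The iron store transporter VIT1 of the vacuole was higher in shoot, with -2.7 log2 (SE 0.20, adjusted p = 1.08e-06). YSL16, which carries copper and iron bound to nicotianamine in the phloem, was higher in shoot, with -1.72 log2 (SE 0.17, adjusted p = 1.19e-05), with root arrays at 234.2 to 441.2 and shoot arrays at 973.4 to 1156.3.

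Aquaporins, the water channels of the plasma membrane (PIP) and of the vacuole (TIP), had 29 tested probe sets. Of these, 7 (24.1%) were called higher in root and 3 (10.3%) in shoot, and 19 were not called, with a median of 0.15 log2. The shoot share was near the 12.6% of all tested probe sets. TIP2-1 read 4143.3, 3486.8, 2004.9 and 3985.4 in root and 17.7, 26.1, 21.8 and 16.3 in shoot, a difference of 6.5 log2 (SE 0.22, adjusted p = 2.21e-09). PIP2-4 was higher in root by 3.42 log2 (SE 0.16, adjusted p = 2.71e-08) and PIP2-6 by 2.06 log2 (SE 0.29, adjusted p = 0.00015). PIP2-7 was the reverse, with 5.3, 4.1, 5.8 and 10.5 in root and 3905.8, 4101.4, 4159.7 and 4563.0 in shoot. No root array rose above 10.5, and the difference was -7.55 log2 (SE 0.12, adjusted p = 2.44e-11). TIP1-2 was higher in shoot, with -4.28 log2 (SE 0.21, adjusted p = 3.81e-08), at 102.7 to 242.4 in root and 3043.7 to 4041.0 in shoot.

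**Figure D3:**
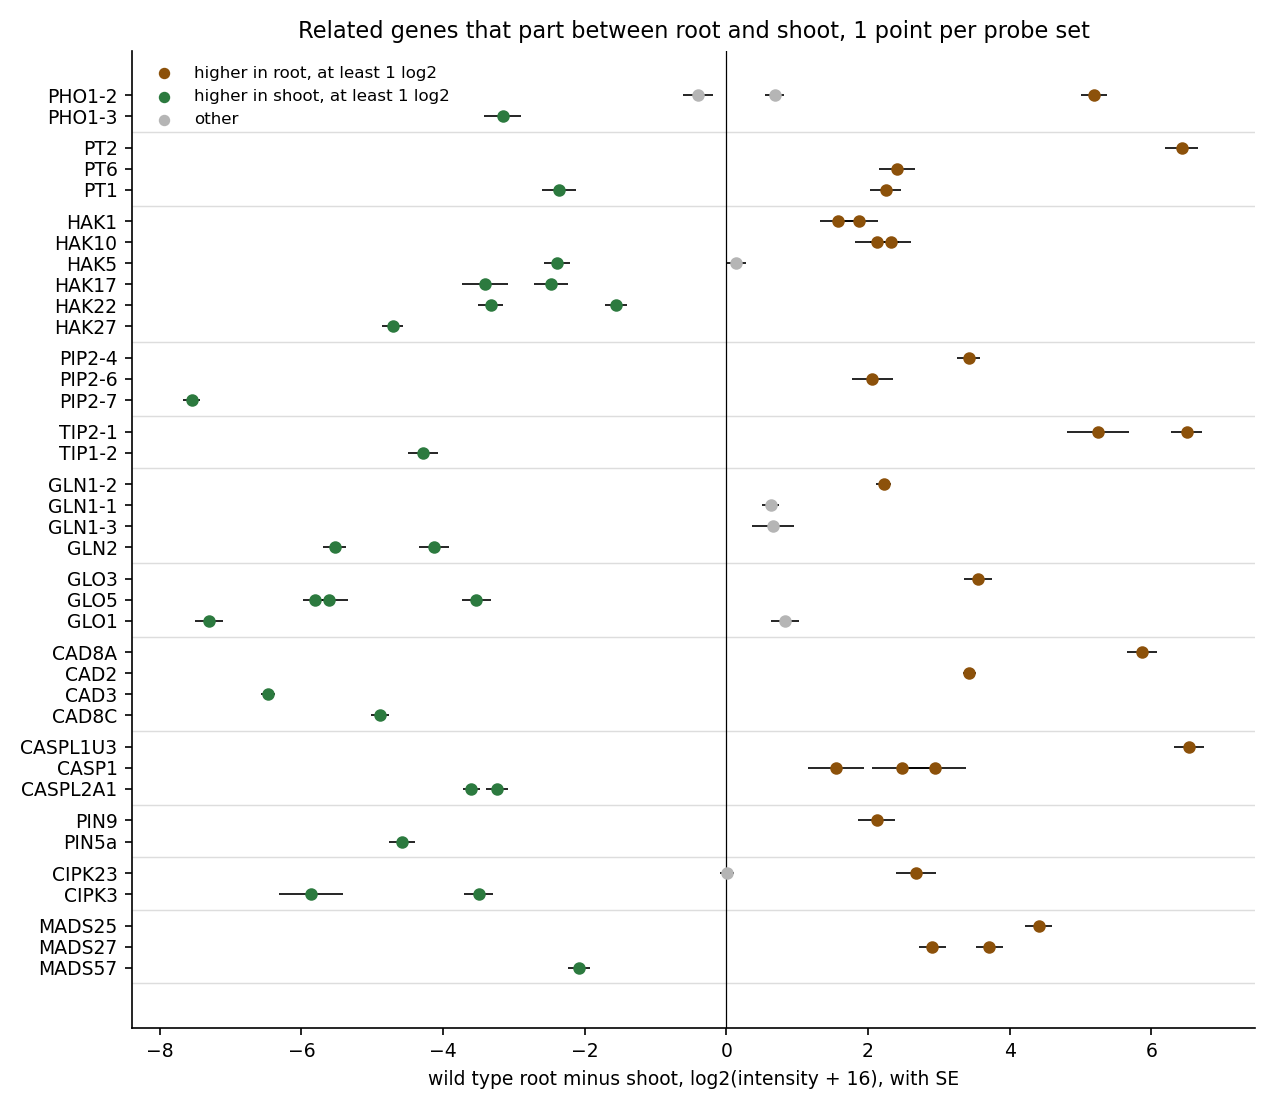
Root minus shoot difference with SE of each tested probe set in 12 groups of related genes, on log2(intensity + 16), 1 point per probe set and several points where a gene has several. The groups were chosen for having members on both sides. PIP2-4 lies at 3.42 and PIP2-7 at -7.55 log2, GLN1-2 at 2.22 and the brighter GLN2 probe set at -5.53 log2; the points of PT1, GLO1, HAK5 and CIPK23 show probe sets of 1 gene that do not match each other.

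Leaves export sucrose and store starch, and roots import and split sucrose. Of 19 tested sugar transport probe sets, 3 (15.8%) were called higher in root and 6 (31.6%) in shoot, with a median of 0.02 log2. Over all tested probe sets the shares were 16.1% and 12.6%, so the root share was near that of all. SWEET1b, a bidirectional sugar transporter, read 1.5, 0.5, 0.9 and 0.7 in root and 473.9, 819.6, 910.1 and 710.2 in shoot, a difference of -5.42 log2 (SE 0.19, adjusted p = 2.89e-09). SUT1, the sucrose and proton symporter used in phloem transport, was higher in shoot, with -2.97 log2 (SE 0.15, adjusted p = 4.78e-08). MST3, a monosaccharide transporter, read 2321.2, 2446.7, 2855.3 and 2561.1 in root and 287.8, 271.2, 302.1 and 295.3 in shoot and was higher in root by 3.07 log2 (SE 0.09, adjusted p = 1.18e-09).

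Among 36 tested probe sets for starch and sucrose metabolism, 6 (16.7%) were called higher in root and 13 (36.1%) in shoot. The root share was near the 16.1% of all tested probe sets, and the median was -0.32 log2. SUS1, a sucrose synthase that splits sucrose in cells that import it, read 3779.7, 3345.0, 2716.6 and 2905.2 in root and 25.1, 46, 37.2 and 33.2 in shoot. Its 2 probe sets differed by 5.97 and 5.32 log2, with adjusted p-values of 3.14e-10 and 2.15e-09. SUS2 was bright in both tissues and higher in root by 1.97 log2 (SE 0.09, adjusted p = 3.7e-08). The cell wall invertase CIN2 was higher in root by 3.7 log2 (SE 0.27, adjusted p = 8.85e-07). On the shoot side, the starch synthase SS1 read 35.4, 14.1, 26.2 and 29.8 in root and 881.8, 1125.9, 1170.4 and 1088.8 in shoot, a difference of -4.69 log2 (SE 0.17, adjusted p = 4.6e-09). AGPS2, a small subunit of ADP-glucose pyrophosphorylase, which supplies starch synthesis, was higher in shoot, with -4.01 log2 (SE 0.25, adjusted p = 2.6e-07).

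Photosynthesis lists had the medians farthest from 0. In light harvesting and photosystems, 6 of 7 tested probe sets for 5 genes were called higher in shoot and none in root, with a median of -6.66 log2. For the Calvin cycle and rubisco the count was 10 of 11, with a median of -6.68 log2. Those 11 probe sets were for only 4 genes, so several read the same gene. Among probe sets with a descriptive gene name the largest difference was that of ADI1 (LOC4344439), which the annotation also calls ferredoxin, an electron carrier of the chloroplast. It read 1.8, 1.2, 0.8 and 1.4 in root and 7623.3, 8913.3, 8946.3 and 8796.9 in shoot, a difference of -8.95 log2 (SE 0.10, adjusted p = 1.58e-11), and its other 3 probe sets differed by -8.36, -8.24 and -6.2 log2.

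RCA, the activase that keeps rubisco open, read 12.5, 5.6, 6.2 and 12.5 in root and 7642.9, 9440.7, 9383.7 and 9342.6 in shoot, a difference of -8.48 log2 (SE 0.13, adjusted p = 2.45e-11). Its 4 probe sets spanned -8.48 to -8.20 log2. The small subunit of rubisco, RBCS, read 42.5, 34.3, 33 and 49.2 in root and 6055.7, 7082.2, 7000.4 and 7217.1 in shoot on its brightest probe set, a difference of -6.95 log2 (SE 0.12, adjusted p = 3.22e-11). The light harvesting protein genes RCABP89 and RCABP69 differed by -7.67 log2 (SE 0.27, adjusted p = 3.06e-09) and -7.64 log2 (SE 0.15, adjusted p = 7.86e-11), and the photosystem I subunit PSAH by -7.42 log2 (SE 0.11, adjusted p = 2.35e-11). FBPase, fructose bisphosphatase, differed by -6.68 and -6.44 log2 on its 2 probe sets. By contrast, 1 dim probe set of RBCS differed by -0.63 log2 (SE 0.13, adjusted p = 0.00208).

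Chlorophyll synthesis and breakdown had 11 of 16 tested probe sets called higher in shoot and 1 in root, with a median of -2.45 log2. CHLH, the large subunit of magnesium chelatase at the entry of chlorophyll synthesis, read 10.8, 13.5, 5.4 and 10.9 in root and 4831.0, 5478.7, 5744.3 and 5778.9 in shoot, a difference of -7.72 log2 (SE 0.12, adjusted p = 2.56e-11). A dim probe set of the same gene gave 0.78 log2 (SE 0.14, adjusted p = 0.000865). CHLP, which makes the phytyl tail of chlorophyll, differed by -7.12 log2 (SE 0.09, adjusted p = 1.75e-11). PORB, the light-dependent protochlorophyllide reductase, differed by -6.57 log2 (SE 0.19, adjusted p = 8.95e-10). SGR, the stay-green gene that takes magnesium out of chlorophyll when leaves age, was the member called higher in root. It read 368.4, 216.6, 395.0 and 347.1 in root and 59.8, 67.2, 77.3 and 89.6 in shoot and differed by 1.94 log2 (SE 0.19, adjusted p = 9.97e-06). A second SGR probe set differed by 0.78 log2. The transcription factors GLK1 and GLK2, which switch on chloroplast genes, were added outside the rule after their values were seen. GLK1 was higher in shoot, with -6.7 log2 (SE 0.22, adjusted p = 1.83e-09) and the brightest probe set of GLK2 had -6.45 log2 (SE 0.13, adjusted p = 7.39e-11). The other GLK2 probe sets differed by -3.49, -2.64 and -2.34 log2.

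Photorespiration recovers carbon from the oxygenase reaction of rubisco and releases the ammonium that GLN2 takes up. Of 9 tested probe sets for 5 genes, 5 were called higher in shoot and 1 in root, with a median of -3.53 log2. Most of the 9 were for glycolate oxidases. GDCSH, the H protein of glycine decarboxylase, read 5, 1, 7.6 and 1.9 in root and 3168.4, 2886.1, 3108.8 and 3085.9 in shoot, a difference of -7.29 log2 (SE 0.12, adjusted p = 3.22e-11). Its other probe set was dim in both tissues, with -0.52 log2 (SE 0.24, adjusted p = 0.0861), and passed without shoot replicate 4, at -0.74 log2, and in the fit of all 32 arrays. The glycolate oxidases of the peroxisome parted. GLO1 read 3.2, 5, 7.3 and 21.8 in root and 3271.8, 4240.4, 3764.9 and 4244.7 in shoot, a difference of -7.31 log2 (SE 0.20, adjusted p = 5.73e-10), and GLO5 differed by -5.81, -5.61 and -3.53 log2 on 3 probe sets. GLO3 was higher in root, with 947.5, 1546.4, 1291.6 and 1559.0 in root and 65.1, 114.7, 106.1 and 109.8 in shoot, a difference of 3.55 log2 (SE 0.20, adjusted p = 1.19e-07). A second GLO1 probe set also ran toward root, by 0.83 log2 (SE 0.20, adjusted p = 0.00596).

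Clock genes were compared at the single time of day sampled. Of 8 tested probe sets, 4 for 3 genes were called higher in shoot and none in root, with a median of -1.40 log2. PRR95 read 414.2, 649.7, 575.4 and 749.8 in root and 3099.4, 4160.5, 4720.2 and 4472.6 in shoot, a difference of -2.76 log2 (SE 0.19, adjusted p = 5.52e-07). LHY, a morning-phased repressor, differed by -2.06 log2 (SE 0.11, adjusted p = 1.1e-07) and PRR37 differed by -2.5 and -1.83 log2. GI was bright in both tissues, at 2131.2 to 3056.8 in root and 2311.7 to 2818.1 in shoot, and differed by 0.03 log2 (SE 0.12, adjusted p = 0.86). With spike-in scaling GI passed the test toward root, at 0.33 log2.

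Wall building lay on the root side. Of 34 tested probe sets for cellulose synthase and related genes, 24 for 20 genes were called higher in root and 1 in shoot, with a median of 1.87 log2. CESA8, a cellulose synthase of primary walls, read 2317.0, 1548.0, 1695.9 and 1492.6 in root and 72.1, 72.7, 87.9 and 72.4 in shoot, a difference of 4.25 log2 (SE 0.15, adjusted p = 2.81e-09). CESA1, of the same kind, read 2379.5, 1625.8, 1592.9 and 1583.3 in root and 99.7, 83.2, 77.6 and 75.8 in shoot, a difference of 4.16 log2 (SE 0.15, adjusted p = 3.95e-09). CSLA1, of the mannan synthase group, was higher in root by 4.63 log2 (SE 0.16, adjusted p = 2.61e-09). CSLE1 was the member called higher in shoot, with -2.18 log2 (SE 0.24, adjusted p = 2.7e-05).

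CESA4, CESA7 and CESA9, which make the cellulose of secondary walls in rice, were also called higher in root and were added outside the rule. CESA4 read 784.8, 187.9, 154.2 and 261.3 in root and 10, 21.3, 19.1 and 12 in shoot. CESA7 read 674.5, 189.1, 135.5 and 269.0 in root and 7.7, 24.8, 13.2 and 20.5 in shoot. CESA9 read 177.9, 44.1, 49.5 and 67.8 in root and 3.3, 15.3, 20.1 and 3.6 in shoot. Root replicate 1 was the highest root array for each of these genes. The differences were 3.25 log2 (SE 0.41, adjusted p = 7.07e-05), 3.13 log2 (SE 0.40, adjusted p = 7.86e-05) and 1.81 log2 (SE 0.37, adjusted p = 0.0018). Without root replicate 1 they were 2.77, 2.70 and 1.43 log2. The 11 probe sets for xylan and other wall glycosyltransferases were all called higher in root, with a median of 1.74 log2. GT47D differed by 3.33 log2 (SE 0.17, adjusted p = 6.05e-08) and XAT2, which adds arabinose to xylan, by 2.1 log2 (SE 0.19, adjusted p = 5.02e-06). When 1 array was left out, 10 or 11 of them remained called.

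Expansins loosen the growing wall, and xyloglucan enzymes cut and rejoin its cross-links. Of 26 tested probe sets, 17 were called higher in root and 1 in shoot, with a median of 1.97 log2. EXPB2, a beta-expansin, read 2242.1, 1211.6, 726.7 and 1068.9 in root and 1.8, 4.9, 1.9 and 3.3 in shoot, a difference of 6.01 log2 (SE 0.28, adjusted p = 2.74e-08). EXPB6 differed by 5.56 log2 (SE 0.20, adjusted p = 4.58e-09), EXPA2 by 4.15 log2 (SE 0.30, adjusted p = 8.99e-07) and XTH8 by 3.94 log2 (SE 0.40, adjusted p = 1.27e-05). EXLA4, an expansin-like gene, was higher in shoot, with -1.2 log2 (SE 0.14, adjusted p = 4.64e-05).

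Lignin and phenylpropanoid genes had 23 of 35 tested probe sets called higher in root and 3 in shoot, with a median of 1.85 log2. PAL (LOC4330034), phenylalanine ammonia-lyase at the entry of the pathway, read 4580.1, 5039.7, 5416.1 and 5156.1 in root and 147.1, 111.9, 140.7 and 154.7 in shoot, a difference of 5.04 log2 (SE 0.11, adjusted p = 1.27e-10). All 5 of its probe sets were called higher in root, from 2.78 to 5.04 log2. The cinnamyl alcohol dehydrogenases, which make the alcohols that lignin is built from, parted by gene. CAD2, the main one of rice lignin, read 3990.2, 4173.5, 4289.7 and 4223.6 in root and 374.6, 343.8, 346.0 and 434.2 in shoot and differed by 3.43 log2 (SE 0.09, adjusted p = 5.85e-10), and CAD8A differed by 5.87 log2 (SE 0.21, adjusted p = 4e-09). CAD3 was the reverse, with 10.2, 8.1, 9.1 and 11.5 in root and 2270.0, 2105.3, 2368.7 and 2313.8 in shoot, a difference of -6.47 log2 (SE 0.10, adjusted p = 2.44e-11), and CAD8C was higher in shoot, with -4.89 log2 (SE 0.13, adjusted p = 4.84e-10). The laccase LAC3, of the family that polymerises lignin, was higher in root by 4.72 log2 (SE 0.16, adjusted p = 3.06e-09). PRX112, a class III peroxidase, differed by 5.57 log2 (SE 0.28, adjusted p = 5.8e-08), and its dim second probe set by 0.2 log2 (SE 0.21, adjusted p = 0.448).

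The Casparian strip and suberin list had 15 of 31 tested probe sets called higher in root and 6 in shoot, with a median of 0.92 log2. Of the 31, 24 were for CASP-like (CASPL) genes, taken in by name. Whether those act in the Casparian strip was not tested. CASP1, a scaffold of the Casparian strip in the endodermis, read 442.8, 250.3, 70.8 and 139.1 in root and 4.2, 10.9, 9.2 and 17.7 in shoot. The root arrays spread widely without reaching the shoot, and the difference was 2.95 log2 (SE 0.43, adjusted p = 0.000192), with 2.48 and 1.55 log2 on the other probe sets. CASPL1U3, a related membrane protein, read 912.3, 1719.1, 1891.2 and 1767.9 in root and 1.1, 0.4, 0.4 and 0.4 in shoot and differed by 6.53 log2 (SE 0.21, adjusted p = 1.81e-09). CASPL2A1 was the reverse, with -3.6 log2 (SE 0.12, adjusted p = 1.78e-09) and a second probe set at -3.24 log2.

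Of 64 tested auxin probe sets, 24 were called higher in root and 5 in shoot, with a median of 0.46 log2. The root side included the Aux/IAA repressors IAA12, IAA30 and IAA31. IAA12 read 856.4, 315.9, 254.2 and 335.6 in root and 2.9, 0.4, 0.9 and 1.5 in shoot, a difference of 4.55 log2 (SE 0.31, adjusted p = 6.12e-07), while IAA30 differed by 3.55 log2 (SE 0.43, adjusted p = 5.06e-05) and IAA31 by 2.94 log2 (SE 0.37, adjusted p = 6.33e-05). Root replicate 1 was the highest root array for all 3 repressors. GH3.6, of the enzymes that join hormones to amino acids, was higher in root by 3.22 log2 (SE 0.21, adjusted p = 4.4e-07). The PIN auxin carriers parted, PIN9 higher in root with 2.12 log2 (SE 0.26, adjusted p = 5.19e-05) and PIN5a higher in shoot with -4.58 log2 (SE 0.19, adjusted p = 1.06e-08). ARF15, an auxin response factor, was higher in shoot, with -2.28 log2 (SE 0.12, adjusted p = 6.59e-08).

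Cytokinin genes had 10 of 36 tested probe sets (27.8%) called higher in root and 8 (22.2%) in shoot, with a median of 0.17 log2. Over all tested probe sets the shares were 16.1% and 12.6%. LOG, which activates cytokinin in the shoot meristem, read 149.2, 90.4, 114.4 and 117.0 in root and 1168.2, 1367.9, 1344.9 and 1388.9 in shoot, a difference of -3.33 log2 (SE 0.14, adjusted p = 1.11e-08). Its relative LOGL1 was the reverse, with 525.7, 1094.4, 802.2 and 853.7 in root and 53.5, 61.8, 64.2 and 51.2 in shoot, a difference of 3.46 log2 (SE 0.20, adjusted p = 1.32e-07). A second LOG probe set differed by only -0.58 log2. RR4, a response regulator that cytokinin induces, was higher in shoot, with -2.3 log2 (SE 0.19, adjusted p = 3.13e-06). Receptors fell on both sides, HK4 in shoot with -1.15 log2 (SE 0.10, adjusted p = 3.83e-06) and CHARK in root with 2.73 log2 (SE 0.33, adjusted p = 5.04e-05).

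Gibberellin genes had 4 of 14 tested probe sets (28.6%) called higher in root and 3 (21.4%) in shoot, with a median of 0.18 log2. With so few probe sets these counts lie near the 16.1% and 12.6% of all tested probe sets. The first enzymes of the pathway, CPS1 and KS1, were higher in shoot. KS1 read 35, 39, 39 and 30.4 in root and 359.6, 368.1, 339.7 and 329.9 in shoot, a difference of -2.82 log2 (SE 0.11, adjusted p = 7.62e-09), and CPS1 differed by -1.57 log2 (SE 0.14, adjusted p = 4.25e-06). For GA20OX2, the enzyme lost in semidwarf rice, the difference toward shoot was -1.47 log2 (SE 0.25, adjusted p = 0.00062). GA20OX3 was higher in root by 2.45 log2 (SE 0.21, adjusted p = 3.65e-06). The receptor GID1 and the deactivating enzyme EUI1 were higher in root by 1.47 log2 (SE 0.14, adjusted p = 9.53e-06) and 1.29 log2 (SE 0.19, adjusted p = 0.000215). A second GID1 probe set differed by only 0.22 log2.

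Abscisic acid genes had 4 of 22 tested probe sets (18.2%) called higher in root and 6 (27.3%) in shoot, with a median of -0.07 log2. The root share was near the 16.1% of all tested probe sets. ZEP1, which makes violaxanthin on the way to abscisic acid and also serves photoprotection, read 50, 62, 92.8 and 65.6 in root and 2297.1, 2544.4, 2732.7 and 2552.4 in shoot, a difference of -4.95 log2 (SE 0.15, adjusted p = 9.9e-10). ABA8OX2, which breaks the hormone down, was higher in shoot, with -3.18 log2 (SE 0.19, adjusted p = 2.56e-07), and the phosphatase PP2C30, a negative regulator, had -3.15 log2 (SE 0.44, adjusted p = 0.000136). The 4 root members were all kinases of the SAPK family, led by SAPK3 with 2.46 log2 (SE 0.15, adjusted p = 2.84e-07) and SAPK9 with 1.92 log2 (SE 0.12, adjusted p = 3.82e-07).

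Ethylene and jasmonate genes had 15 of 50 tested probe sets called higher in root and 1 in shoot, with a median of 0.75 log2. The member called in shoot was EIL1B, a transcription factor of the ethylene pathway, with -1.16 log2 (SE 0.19, adjusted p = 0.000444). AOS4, of the allene oxide synthase family, read 859.9, 1095.6, 1055.9 and 1318.8 in root and 2.1, 2.4, 9.4 and 1.4 in shoot, a difference of 5.79 log2 (SE 0.17, adjusted p = 7.93e-10). OPR5, of the oxophytodienoate reductase family, differed by 4.68 log2 (SE 0.22, adjusted p = 2.58e-08), and the lipoxygenase LOX1.1 by 3.5 log2 (SE 0.44, adjusted p = 6.38e-05). A second OPR5 probe set differed by 0.77 log2. AOS2 spread widely in root at 67.2, 337.4, 1026.3 and 426.5 and differed by 3.46 log2 (SE 0.61, adjusted p = 0.000674), or 4.14 log2 without root replicate 1. In the brassinosteroid and strigolactone list 3 of 11 tested probe sets were called higher in root and none in shoot, among them the receptor BRI1 with 1.13 log2 (SE 0.24, adjusted p = 0.00238) and the synthesis enzyme DWARF with 1.12 log2 (SE 0.24, adjusted p = 0.00277). That count was 1 without root replicate 1.

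Diterpenoid phytoalexins are defence compounds of rice, and the momilactones among them are released from its roots. Of 16 tested probe sets, 7 were called higher in root and 1, KSL5, in shoot, with a median of 0.93 log2, which was 1.57 log2 without root replicate 1 and 0.32 log2 without root replicate 3. The root arrays disagreed strongly. CPS4, the first enzyme toward momilactones, read 35.5, 454.1, 1677.8 and 512.6 in root and 20, 14.9, 14.5 and 16 in shoot. Root replicate 3 was the highest and root replicate 1, just above the shoot arrays, the lowest. CYP99A3, a cytochrome P450 of the same gene cluster, read 116.1, 725.1, 2288.5 and 818.9 in root and 47.4, 42.2, 55.1 and 43.6 in shoot. KSL4, the next enzyme after CPS4, read 3, 62.1, 541.0 and 114.0 in root and 1.1, 0.4, 3.5 and 1.5 in shoot. The order of the root arrays was the same for the 3 genes, and for KSL4 the groups overlapped. Their differences were 3.57 log2 (SE 0.82, adjusted p = 0.00391), 3.39 log2 (SE 0.67, adjusted p = 0.00154) and 2.53 log2 (SE 0.79, adjusted p = 0.0196). Without root replicate 1 they were 4.54, 4.16 and 3.34 log2, and without root replicate 3 they were 2.86, 2.79 and 1.72 log2. KSL4 lost its call without root replicate 4, at 2.42 log2. Over all 16 tested probe sets the median level was 4.90, 6.90, 8.96 and 7.00 on log2(intensity + 16) on root replicates 1 to 4 and 5.71 to 5.81 on the shoot arrays.

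**Figure D4:**
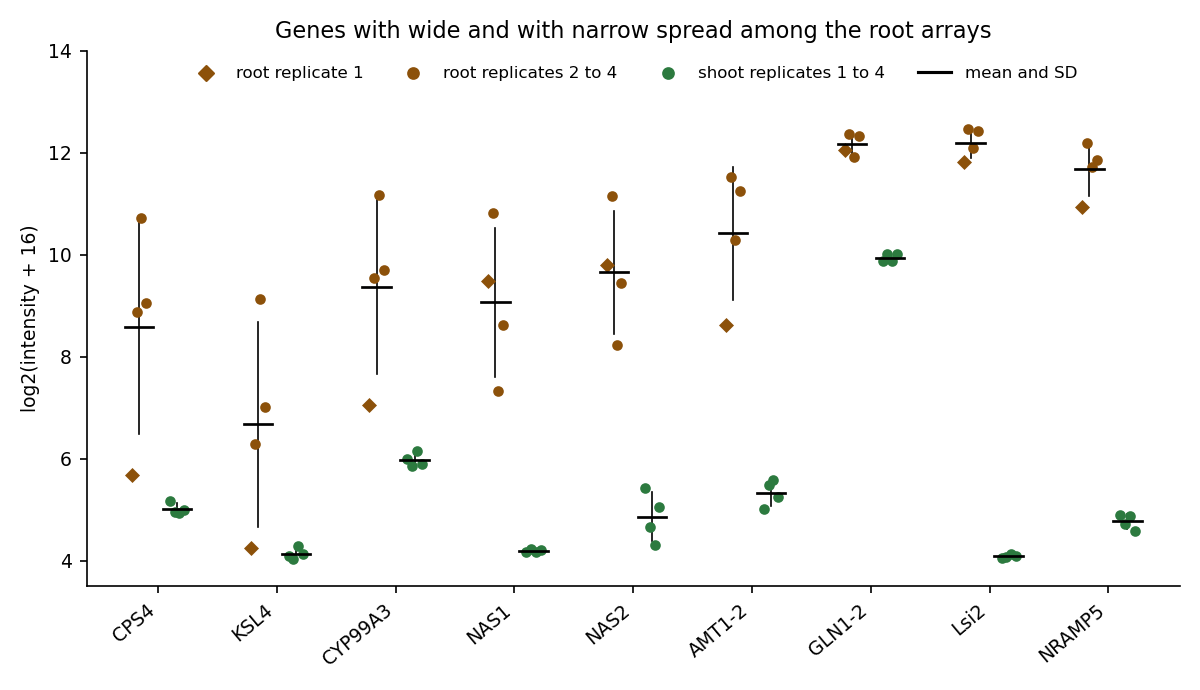
Level of 9 genes on each wild type array, on log2(intensity + 16); brown marks are root arrays (diamond, replicate 1), green circles shoot arrays, black bars the mean and SD of 4. CPS4, KSL4 and CYP99A3 spread over several log2 units in root, lowest in replicate 1 and highest in replicate 3, and NAS1 and NAS2 are highest in replicate 2, whereas GLN1-2 and Lsi2 stay within about 1 log2 unit.

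Other families of related genes also held members on both sides. They were chosen for having at least 1 probe set called by at least 2 log2 in each direction. Of all tested probe sets, 5.97% were so called in root and 6.10% in shoot. Of 33 tested CIPK probe sets 1 was so called in root and 6 in shoot, and of 11 MADS probe sets 3 and 2. The choice fixed the split, so the split is no result about these families. Among the CIPK kinases, which act with calcium sensors on ion channels, CIPK23, an activator of AKT1, read 683.4, 1858.3, 1824.4 and 1596.9 in root and 199.0, 188.6, 201.6 and 227.0 in shoot on 1 probe set and was higher in root by 2.68 log2 (SE 0.28, adjusted p = 1.53e-05), while a second probe set differed by 0.01 log2 (SE 0.10, adjusted p = 0.952). CIPK3 was higher in shoot, with -5.86 log2 (SE 0.45, adjusted p = 1.48e-06), and -6.41 log2 without root replicate 1. With spike-in scaling the second CIPK23 probe set passed the test at 0.30 log2. LPR1 and LPR2, multicopper oxidases named for a root response to low phosphate in Arabidopsis, parted, with 2.16 log2 (SE 0.20, adjusted p = 5.36e-06) for LPR1 and -4.15 log2 (SE 0.16, adjusted p = 7.89e-09) for LPR2. MADS25 and MADS27, of the MADS transcription factors, were higher in root by 4.41 log2 (SE 0.19, adjusted p = 1.33e-08) and 3.71 log2 (SE 0.19, adjusted p = 6.04e-08). MADS55 and MADS57 of the same family were higher in shoot by at least 2 log2. Among the 15 largest root differences with a descriptive name were Adh2, an alcohol dehydrogenase of fermentation, which read 2305.6, 4765.8, 4180.2 and 3620.8 in root and 16.6, 25.8, 17.7 and 11.6 in shoot and differed by 6.75 log2 (SE 0.22, adjusted p = 1.78e-09), and the germin-like gene GER4, with 7.01 log2 (SE 0.19, adjusted p = 4.96e-10).

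The tissue differences were then looked up in the transgenic lines, which share no array with the wild type comparison. At an adjusted p under 0.05, 59.6% of the 38129 probe sets differed between root and shoot in AGR1/7, 58.9% in AGR1/8 and 59.6% in AGR3/8. Of the 10960 probe sets called by at least 1 log2 in wild type (28.7%), 97.1% passed that adjusted p with the same sign in AGR1/7, 98.2% in AGR1/8 and 97.1% in AGR3/8, and 10347 (94.4%) did in all 3. With the 1 log2 limit applied in the lines too, the shares were 82.2%, 85.2% and 83.1%. None passed with the opposite sign in AGR1/7 or AGR3/8, and 2 did in AGR1/8. The 12 probe sets called in the nitrogen assimilation list and the 4 in the ammonium transport list passed with the same sign in every line, though some of them differed by less than 1 log2 there. AMT1-2 differed by 5.13, 5.94 and 5.97, GLN2 by -6.15, -6.18 and -6.48 and Lsi2 by 8.11, 8.13 and 8.40 log2 in AGR1/7, AGR1/8 and AGR3/8 in that order. In xylan and other wall glycosyltransferases 8 of 11 called probe sets passed with the same sign in all 3 lines, and in metal uptake 19 of 22.

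The difference between the mean of the lines and wild type in root minus shoot passed the test for 731 probe sets, 1.92% of those tested. GLN1-1 differed by 0.06, 0.21 and -0.19 log2 in the lines, against 0.63 in wild type. NAS1 differed by 0.98, 5.00 and 2.88 log2, against 4.87 in wild type, and NAS2 by 1.34, 5.19 and 2.78 log2. For none of these 3 genes did the difference between the lines and wild type pass the test, with adjusted p-values of 0.0562, 0.299 and 0.371. For SUT1 it did. Its difference was -2.11, -1.70 and -1.58 log2 in the lines and -2.97 in wild type, a shift of 1.17 log2 with an adjusted p of 0.00255.

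**Figure D5:**
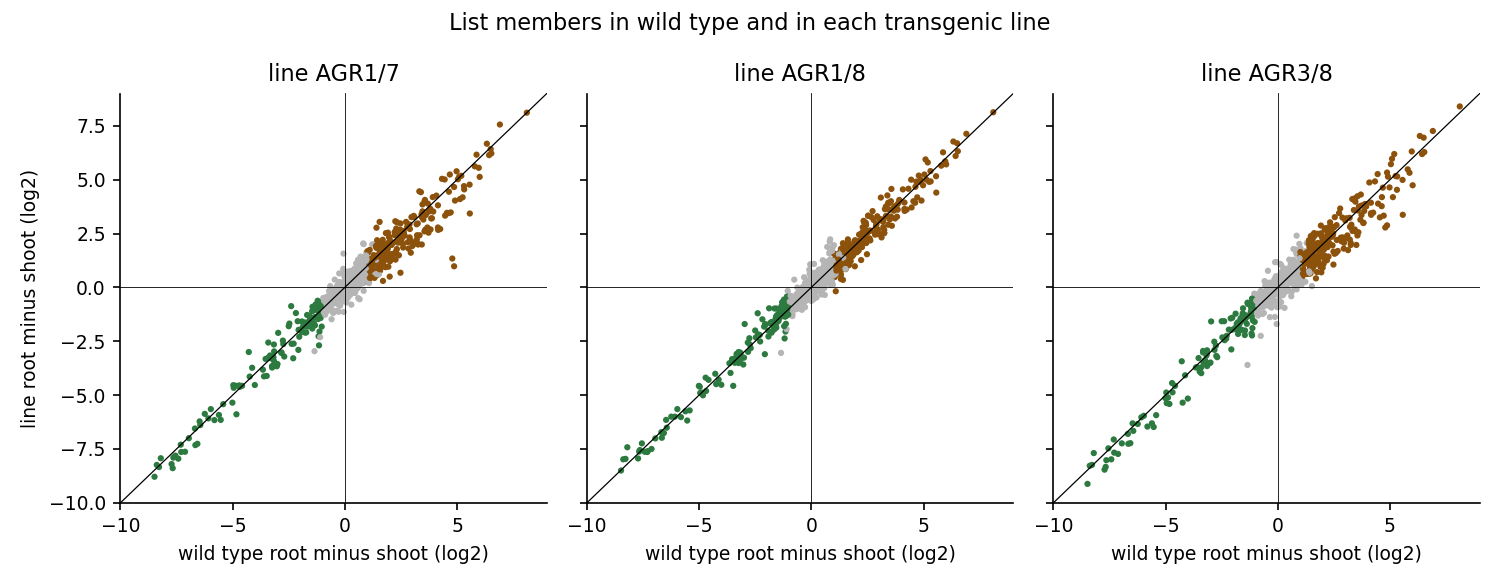
Root minus shoot difference of the 614 tested list members in wild type (horizontal axis) and in each transgenic line (vertical axis), both on log2(intensity + 16), with a line where both are equal. Brown points were called higher in root and green points higher in shoot in wild type; nearly all lie on the same side of 0 in each line, and the brown points that lie lowest in AGR1/7 include NAS1 at 0.98 log2.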

How the data were processed

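RNA was extracted with TRI reagent, cleaned on RNeasy columns, labelled with biotin and hybridised to the Affymetrix rice array, per the labels' protocols. The values used are the deposited table of intensity per probe set, 1 column per array, and the software by which the authors summarised the probes is not stated; the values show a common trimmed mean on every array. All columns belong to the 32 samples, with 0 columns of other samples. Groups and replicate numbers came from the labels. Intensities were not normalised again. log2(intensity + 16) of the 8 wild type arrays was fitted in R 4.3.3 by limma 3.58.1, whose variance prior followed intensity. Benjamini-Hochberg adjustment ran over 38129 probe sets. Root minus shoot of the lines came from a fit of their 24 arrays with the same test. The difference between the lines and wild type came from a fit of all 32 arrays.

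The members and lists were chosen with earlier results of these data known. Probe sets were named through the platform annotation, updated through gene identifiers: 22436 have 1 gene, 95 several and 34663 none, and no gene was named from a probe set with several. Probe sets whose names carry a suffix such as x or s can match related genes. The genes named were drawn by a rule, of which the text gives a part: all probe sets of lists with up to 12 tested, up to 6 called per direction in longer lists, the 15 largest differences per direction, and families split between the tissues. Same-numbered root and shoot arrays deviated together with r of 0.2209, 0.1028, 0.035 and 0.0846, so the numbers were not taken as pairs. The fit was tested on simulated data. Alternatives were other added constants, filters, normalisations, array weights, a replicate block, leaving out each array, and, chosen after seeing the data, scaling to the spike-ins.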

Additional observations from a re-analysis of the deposited data

Results flagged for a closer look

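Among the named probe sets, 28 of 312 groups of 4 arrays had 1 array farther from the others than Dixon's test allows, where chance gives about 1 in 20, and 11 of the 28 were in root replicate 1. Values are intensities. Root replicate 1 stood apart for GDH1 at 1591.5, GDH2 at 187.9, HAK1 at 880.8, HAK17 at 19.5, GLO5 at 155.4, CESA1 at 2379.5, CAD8C at 43.5, CASPL1U3 at 912.3, CHARK at 120.4, BRI1 at 323.5 and CIPK23 at 683.4. Root replicate 2 stood apart for PRR37 at 368.7. Shoot replicate 1 stood apart for Fd-GOGAT at 1057.5, HAK17 at 749.0, RCA at 7642.9, RCA at 7207.3, GLO3 at 65.1, ADI1 at 7623.3, ADI1 at 6559.9, XTH8 at 182.3 and PIN5a at 905.9. Shoot replicate 2 stood apart for GDH2 at 27.3. Shoot replicate 3 stood apart for GLN1-3 at 1.7, PRR37 at 231.1 and CESA8 at 87.9. Shoot replicate 4 stood apart for PIP2-6 at 322.5, BRI1 at 57.7 and CIPK3 at 250.9.

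The root minus shoot difference itself differed between the mean of the 3 lines and wild type for 7 named probe sets, by limma's test of that difference. Lines minus wild type, it was HAK5 1.18 log2 (adjusted p = 0.0113), Lsi1 0.51 log2 (adjusted p = 0.0191), SUT1 1.17 log2 (adjusted p = 0.00255), GLK2 0.73 log2 (adjusted p = 0.049), PRR37 0.71 log2 (adjusted p = 0.0308), CESA8 -0.99 log2 (adjusted p = 0.0206) and LAC3 -1.05 log2 (adjusted p = 0.0106). For HAK5 the value is that of its dim probe set. The GLK2 value is that of a probe set at -2.64 log2 in wild type and not of its brightest. For PRR37 it is that of the probe set at -2.5 log2.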

How the results depend on the processing

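No named probe set that passed the test changed sign under any alternative run. Of those that did not pass, 6 crossed 0 in at least 1 alternative, with ranges on leaving out 1 array of -0.09 to 0.17 log2 for AMT1-1, -0.37 to 0.05 for AMT3-1, -0.22 to 0.39 for NAR2.2, -0.22 to 0.14 for GDH3, -0.04 to 0.13 for GI and -0.03 to 0.09 for CIPK23. Counts are of probe sets called in one tissue by at least 1 log2 unless given otherwise, and medians are in log2. The cause of the shifts was not tested. With array weights, values were -0.03 for gibberellin (median) and 1 for brassinosteroid and strigolactone (root count). With the dimmest 50% left out, values were 1 for ammonium transport (shoot count), -1.06 for nitrogen assimilation (median), 0.64 for metal uptake and chelation (median), -0.74 for sugar transport (median), -4.57 for photorespiration (median) and -3.01 for chlorophyll synthesis and breakdown (median). It also gave -0.74 for starch and sucrose metabolism (median), 2.60 for expansins and xyloglucan enzymes (median), 2.69 for phenylpropanoid and lignin (median) and 0.88 for auxin (median). With no filter on dim probe sets, values were 0.23 for metal uptake and chelation (median), 0.99 for expansins and xyloglucan enzymes (median) and -0.96 for circadian clock (median). With 4 added before the log, values were 3495 for all probe sets at 2 log2 (root count), 5 for sugar transport (root count), -6.91 for light harvesting and photosystems (median), -7.30 for Calvin cycle and rubisco (median), -4.75 for photorespiration (median) and -3.06 for chlorophyll synthesis and breakdown (median). Further values were 2.60 for expansins and xyloglucan enzymes (median), 2.54 for phenylpropanoid and lignin (median), 2 for ethylene and jasmonate (shoot count), 1 for brassinosteroid and strigolactone (shoot count) and 1.31 for Casparian strip and suberin (median). With 64 added before the log, values were 3692 for all probe sets at 1 log2 (root count), 1136 for all probe sets at 2 log2 (root count), 3461 for the mean of the lines at 1 log2 (root count), 1 for ammonium transport (root count), 0 for ammonium transport (shoot count) and 1 for sugar transport (root count). In that fit there were -5.94 for light harvesting and photosystems (median), -5.06 for Calvin cycle and rubisco (median), -2.06 for photorespiration (median), -1.74 for chlorophyll synthesis and breakdown (median), 7 for starch and sucrose metabolism (shoot count) and 1.13 for cellulose and cellulose synthase-like (median). Also found were 1.27 for xylan and other wall glycosyltransferases (median), 0 for expansins and xyloglucan enzymes (shoot count), 1.13 for expansins and xyloglucan enzymes (median), 15 for auxin (root count), 4 for cytokinin (shoot count) and 1 for gibberellin (shoot count). The same setting gave 1 for brassinosteroid and strigolactone (root count), 0 for diterpenoid phytoalexins (shoot count) and 0.33 for Casparian strip and suberin (median). With spike-in scaling, chosen after seeing the data, values were 0.16 for ammonium transport (median), 0.64 for metal uptake and chelation (median), 5 for sugar transport (root count), -6.39 for light harvesting and photosystems (median), 2 for photorespiration (root count) and 2 for chlorophyll synthesis and breakdown (root count). The same setting gave -2.16 for chlorophyll synthesis and breakdown (median), 2.01 for xylan and other wall glycosyltransferases (median), 0 for expansins and xyloglucan enzymes (shoot count), 4 for cytokinin (shoot count), 0 for ethylene and jasmonate (shoot count) and 5 for brassinosteroid and strigolactone (root count). The same setting gave -1.10 for circadian clock (median). Leaving out 1 array at a time gave 1 to 2 for ammonium transport (root count), -0.38 to 0.05 for sugar transport (median), -3.01 to -2.43 for chlorophyll synthesis and breakdown (median), 0 to 2 for ethylene and jasmonate (shoot count), 1 to 4 for brassinosteroid and strigolactone (root count) and 0 to 1 for brassinosteroid and strigolactone (shoot count). The arrays behind these shifts were shoot replicate 2 for ammonium transport, root replicates 1 and 2 for sugar transport, each root replicate for chlorophyll, root replicates 2 and 4 and shoot replicate 1 for ethylene and jasmonate, and root replicates 1 and 4 for brassinosteroid and strigolactone. Medians near 0 also moved by over 1.5 times, to -0.17 to 0.04 for ammonium transport, 0.04 to 0.19 for nitrogen assimilation, 0.08 to 0.50 for phosphate and sulfate transport, 0.09 to 0.22 for aquaporins, 0.09 to 0.23 for cytokinin, 0.02 to 0.29 for gibberellin and -0.16 to -0.06 for abscisic acid, as did diterpenoid phytoalexins at 0.32 to 1.57. Over all probe sets those fits called 6055 to 6185 higher in root and 4730 to 4903 in shoot. With the replicate block the counts were 6194 and 4827, and 5862 and 4552 for the mean of the lines. Among the named probe sets the block changed the call of AMT3-2 and GLN1-3, which passed with it, and of no other. Root and shoot arrays 1 to 3 deviated most alike with their own number and number 4 did not, which is a hint from the data and not the design. Of the probe sets on an array, 48.3% to 51.2% read under the added 16, and differences of dim genes are understated.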
